A study of Arabidopsis thaliana with 3 samples.

Results

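The WRKY transcription factor genes of Arabidopsis thaliana were examined as targets of AIPP3 in chromatin immunoprecipitation followed by sequencing (ChIP-seq). The set held 57 WRKY genes, listed by locus identifier, of 27444 protein-coding genes on chromosomes 1 to 5. By the usual division of the family, 12 belong to group I, 35 to group II and 10 to group III. All 57 were annotated as protein-coding WRKY genes, and the translated coding sequence of all 57 held the heptad that names the family, which read WRKYGKK in WRKY50 and WRKY51 and WRKYGQK in the others. In group I, 11 of 12 proteins held 2 heptads, the exception being WRKY10, and the zinc finger typical of group III was found in 10 of 10 group III proteins and in 0 of the other 47. The set is not the whole family, since 15 further genes with a WRKY name in the annotation were not listed. None of these 15 had a peak in any library, and the list was drawn up with earlier results of these data known, so the share of bound genes depends on it.

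WRKY factors are plant transcription factors that bind a short DNA element, the W-box, through a domain that combines the WRKYGQK heptad with a zinc finger. Group I proteins typically carry a pair of such domains, group II proteins carry a single domain, and group III proteins carry a single domain with a different zinc finger. Many members are induced rapidly by microbial elicitors, salicylate or stress, and many regulate one another in defence, senescence and development. AIPP3 is a BAH domain protein that was studied as a reader of trimethylated lysine 27 of histone H3 (H3K27me3), a mark of repressed genes laid down by Polycomb complexes.

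Peak lists from 2 libraries of AIPP3-4Myc seedlings and 1 library of Col-0 seedlings were compared, all harvested at 13 days of age and immunoprecipitated with an antibody against the Myc epitope. AIPP3-4Myc plants were of the Col-0 ecotype and carried AIPP3 with a Myc tag under its own promoter, placed in the corresponding mutant per the study's methods, whereas Col-0 plants were untagged. Whole seedlings were used, so a peak cannot be assigned to a cell type. Col-0 therefore differed from AIPP3-4Myc in the transgene and in the mutant background, and the labels did not say whether both AIPP3-4Myc libraries came from 1 transgenic line.

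The nuclear chromosomes held 926 peaks in AIPP3-4Myc replicate 1, 430 in AIPP3-4Myc replicate 2 and 16 in Col-0. A peak is an interval in which MACS found more reads than expected, and its score is 10 times the negative log10 of the p-value, so a higher score is a firmer peak. Genes were counted as bound if any peak shared 1 bp or more with the target region, which extends over the gene from the transcription start site (TSS) to the termination site (TTS) and over the 1 kb before the TSS. Read depth was not given in the sources used here, so scores were ranked within a list and not set against another list. A gene without a peak did not pass the peak threshold in that library, which is not a measure of absent binding.

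The coding sequence of the heptad, the part of the gene that defines the family, is shown for the 12 members bound in at least 1 AIPP3-4Myc library. Each line gives the coding strand 5′ to 3′, with the 21 bases of the heptad in capitals and 12 bases on either side. Sequences and coordinates are those of the TAIR10.1 assembly, whose nuclear chromosomes have TAIR10 coordinates. WRKY33, the group I member, has an N-terminal (N) and a C-terminal (C) domain.
WRKY6 (chr1:23017689-23017733, minus strand): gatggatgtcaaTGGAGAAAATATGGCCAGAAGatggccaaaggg
WRKY7 (chr4:12572875-12572919, plus strand): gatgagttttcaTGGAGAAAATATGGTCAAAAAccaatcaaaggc
WRKY11 (chr4:15290347-15290391, minus strand): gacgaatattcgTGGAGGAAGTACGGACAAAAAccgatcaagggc
WRKY17 (chr2:10437958-10438002, minus strand): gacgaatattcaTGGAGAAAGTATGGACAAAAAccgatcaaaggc
WRKY18 (chr4:15384304-15384348, plus strand): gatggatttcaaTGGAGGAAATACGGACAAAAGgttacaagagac
WRKY28 (chr4:10062137-10062181, plus strand): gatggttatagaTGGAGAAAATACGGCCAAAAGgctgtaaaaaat
WRKY29 (chr4:12292479-12292523, plus strand): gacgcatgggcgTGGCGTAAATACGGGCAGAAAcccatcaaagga
WRKY33 N (chr2:16109346-16109390, plus strand): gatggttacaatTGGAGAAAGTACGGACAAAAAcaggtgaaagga
WRKY33 C (chr2:16109970-16110014, plus strand): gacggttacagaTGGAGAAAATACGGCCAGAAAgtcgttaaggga
WRKY40 (chr1:30384777-30384821, plus strand): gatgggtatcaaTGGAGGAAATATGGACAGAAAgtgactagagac
WRKY48 (chr5:20091633-20091677, plus strand): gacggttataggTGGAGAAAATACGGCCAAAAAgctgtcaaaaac
WRKY62 (chr5:351553-351597, minus strand): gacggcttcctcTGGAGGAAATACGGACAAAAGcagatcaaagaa
WRKY65 (chr1:10236910-10236954, plus strand): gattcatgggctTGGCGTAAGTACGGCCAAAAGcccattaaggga
The heptad was written with 12 different coding sequences in its 13 copies, and 14 of the 21 positions were the same in all copies. A peak covered 11 of the 13 copies. The exceptions were WRKY7 and WRKY17, in which the peaks ended upstream of the exon that encodes the heptad.

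WRKY genes carried AIPP3-4Myc peaks in 12 of 57 cases, 5 of them in both replicates, and in no case a Col-0 peak. In AIPP3-4Myc replicate 1, 11 of 57 WRKY genes (19.3%) were bound, against 5.11% of all protein-coding genes. In replicate 2, 6 of 57 (10.5%) were bound, against 2.28% of all protein-coding genes. Both replicates shared 5 members (8.77%), against 1.67% of all protein-coding genes, and at least 1 replicate bound 12 members (21.1%), against 5.72%. In Col-0 0 of 57 members were bound, where 0.0547% of protein-coding genes were, and 15 members lay on chromosome 4, on which the Col-0 list had no peak. Every share of WRKY genes in the AIPP3-4Myc lists was thus above the share of all genes. When replicate 1 was limited to its 430 highest peaks, 6 members were bound in it and 3 in both, against 2.36% and 1.24% of all protein-coding genes. These shares describe the lists, and no test was made between genotypes, since 2 libraries against 1 cannot give a permutation p-value below 0.333.

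**Figure D1:**
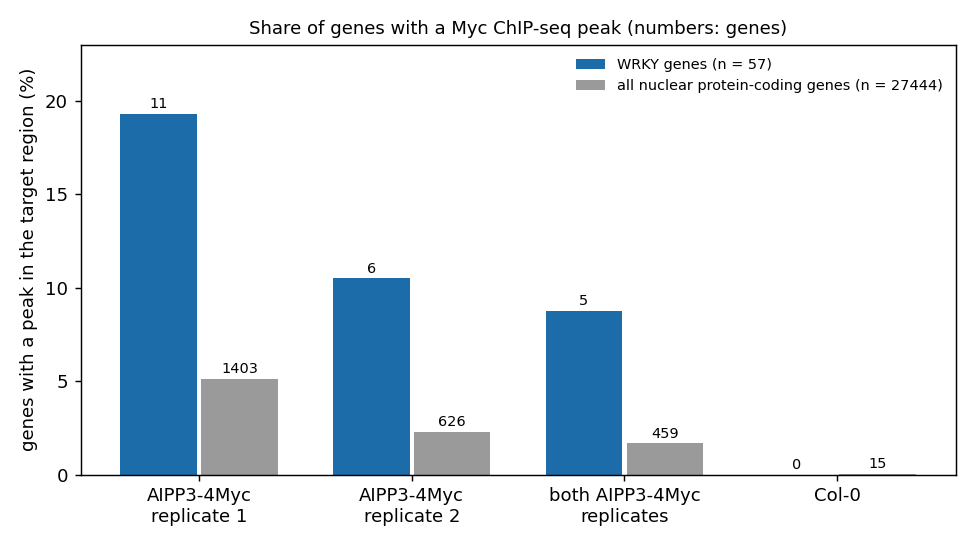
Share of genes with a peak in the target region (%), for the 57 WRKY genes (left bar of each pair) and all 27444 nuclear protein-coding genes (right bar), by library, with the number of genes above each bar. WRKY genes had 11, 6 and 5 bound members in replicate 1, replicate 2 and both AIPP3-4Myc replicates, and 0 in Col-0.

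The members bound in both replicates were WRKY17, WRKY18, WRKY33, WRKY40 and WRKY65, which made up 45.5% of the members of replicate 1 and 83.3% of those of replicate 2. For all protein-coding genes the shared genes were 32.7% and 73.3%. The target regions of WRKY genes were close to usual in length, with a median of 3147 bp against 3078 bp for all protein-coding genes. The median WRKY gene was 2132 bp long where a peak was present and 2249 bp where none was.

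Bound members lay mainly in group II. Group II had 9 of 35 genes bound in replicate 1 (25.7%), 5 in replicate 2 (14.3%) and 4 in both (11.4%). Group I had 1 of 12 genes bound (8.33%), and this gene, WRKY33, was bound in both replicates. Group III had 1 of 10 genes bound in replicate 1 and 0 in replicate 2. All protein-coding genes were bound at 5.11% in replicate 1, 2.28% in replicate 2 and 1.67% in both. Against these shares, the single genes of group I and group III are too few to set these groups apart from all genes.

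Within group II every subgroup had a bound gene in at least 1 replicate. Subgroup IIa, the small clade of WRKY18, WRKY40 and WRKY60 that act together in basal defence, had 2 of 3 genes bound in both replicates. Subgroup IId, whose members bind calmodulin, had 3 of 6 genes bound in replicate 1, namely WRKY7, WRKY11 and WRKY17, and 1 of 6 in replicate 2. Subgroup IIe had 2 of 6 bound in replicate 1, WRKY29 and WRKY65, and 1 in replicate 2. Subgroup IIc had 2 of 12 bound in replicate 1, WRKY28 and WRKY48, and 0 in replicate 2. Subgroup IIb had 0 of 8 bound in replicate 1 and 1 in replicate 2, WRKY6. Of all protein-coding genes 5.11% were bound in replicate 1, 2.28% in replicate 2 and 1.67% in both. These subgroups hold 3 to 12 genes, so counts of 0 or 1 cannot be set apart from those shares, and their differences were not tested.

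**Figure D2:**
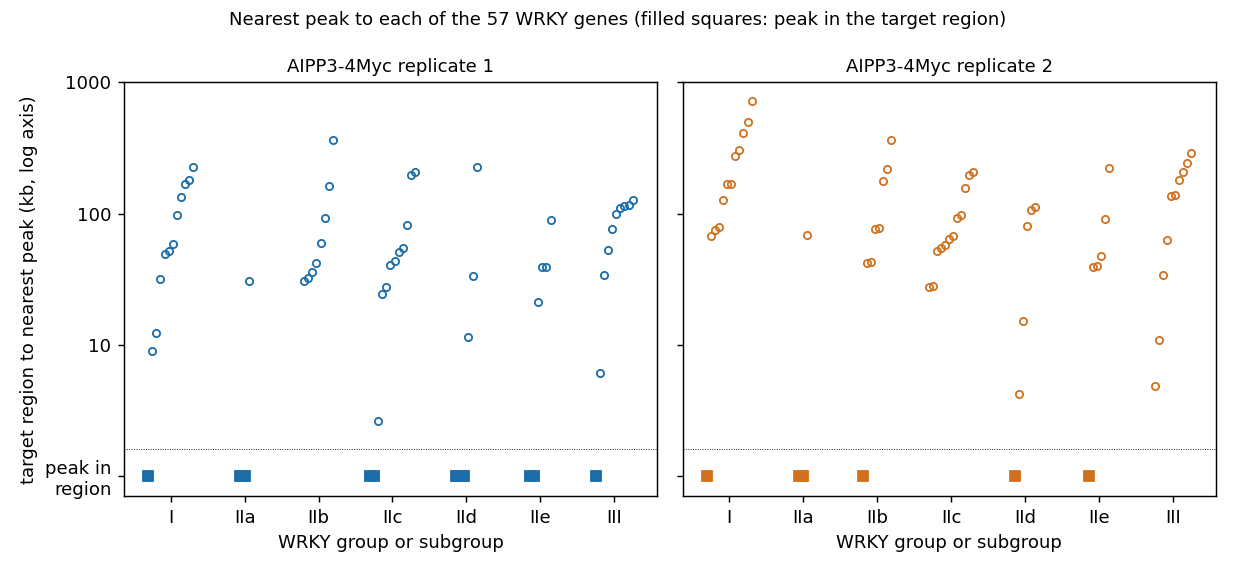
Distance (kb, log axis) between the target region and the nearest peak for each of the 57 WRKY genes by group and subgroup, in replicate 1 (left) and replicate 2 (right) of AIPP3-4Myc. Filled squares below the dotted line are the 11 and 6 members with a peak in the target region, and open circles are the others, the nearest of which were 2.63 kb and 4.24 kb away.

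WRKY33 (AT2G38470, chr2:16108235-16110766, plus strand), which drives camalexin synthesis and resistance to necrotrophic fungi, was covered nearly end to end. In replicate 1 its peak (chr2:16108224-16111849) had a score of 70.5, rank 499 of 926, and covered 100% of the gene body. In replicate 2 the peak (chr2:16108285-16110886) had a score of 104, rank 111 of 430, and covered 98.0%. Both WRKY33 heptads lay under both peaks. Both peaks also touched the neighbouring gene AT2G38480 and an antisense transcript within WRKY33, AT2G08965, so the peak cannot be assigned to WRKY33 alone.

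WRKY18 and WRKY40 are pathogen-induced factors that partner with WRKY60 and dampen parts of basal defence. WRKY18 (AT4G31800, chr4:15382777-15385100, plus strand) had a peak of score 85.2, rank 340, in replicate 1 (chr4:15383009-15385549) and one of score 97.7, rank 125, in replicate 2 (chr4:15383131-15385539). These peaks began 232 and 354 bp after the TSS, covered 90.0% and 84.8% of the gene and ran past its end into AT4G31805, annotated as the cell polarity gene POLAR. When each peak was given only to the gene with the nearest TSS, WRKY18 was the only member lost, and 10, 5 and 4 members remained in replicate 1, replicate 2 and both, against 3.36%, 1.56% and 1.07% of all protein-coding genes under that rule.

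WRKY40 (AT1G80840, chr1:30383561-30385499, plus strand) was covered over its 5′ part. Its peak in replicate 1 (chr1:30383383-30384972) had a score of 66.8, rank 547, and in replicate 2 (chr1:30383502-30384960) a score of 56.6, rank 333. They began 178 and 59 bp upstream of the TSS and covered 72.8% and 72.2% of the gene body but 60.1% of the coding sequence in both replicates. WRKY60 (AT2G25000), the closest relative of WRKY18 among the members with 60.0% identical residues over the longer protein, had no peak, and the nearest lay 30575 bp away in replicate 1 and 68501 bp away in replicate 2.

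WRKY17 (AT2G24570, chr2:10437353-10439469, minus strand) and WRKY11 (AT4G31550) are close relatives that restrain basal resistance to Pseudomonas syringae. The WRKY17 peak of replicate 1 (chr2:10438219-10439595) had a score of 128, rank 119, and that of replicate 2 (chr2:10438212-10439377) a score of 84.1, rank 169. They covered 59.1% and 55.1% of the gene, all of it at the 5′ end, and 68.2% of the coding sequence in both replicates. WRKY11 shares 75.4% of residues with WRKY17 and had a peak in replicate 1 only, with a score of 71.5 at rank 483, over 91.8% of the gene. The nearest replicate 2 peak lay 15.2 kb from the WRKY11 target region.

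WRKY65 (AT1G29280, chr1:10236337-10237990, plus strand) had a peak of score 104, rank 212, in replicate 1 (chr1:10236438-10237821) and of score 55.7, rank 341, in replicate 2 (chr1:10236609-10237661). The peaks lay inside the gene body, over 83.7% and 63.7% of it. For all 5 shared members the replicate 1 peak was the wider and began farther 5′. The replicate 2 peak lay wholly within the replicate 1 peak in 4 genes and for 99.4% of its length in WRKY17. Over all nuclear pairs of overlapping peaks the replicate 1 peak was the wider in 81.2% of 314 pairs. The 5 WRKY pairs are too few to set apart from that share.

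**Figure D3:**
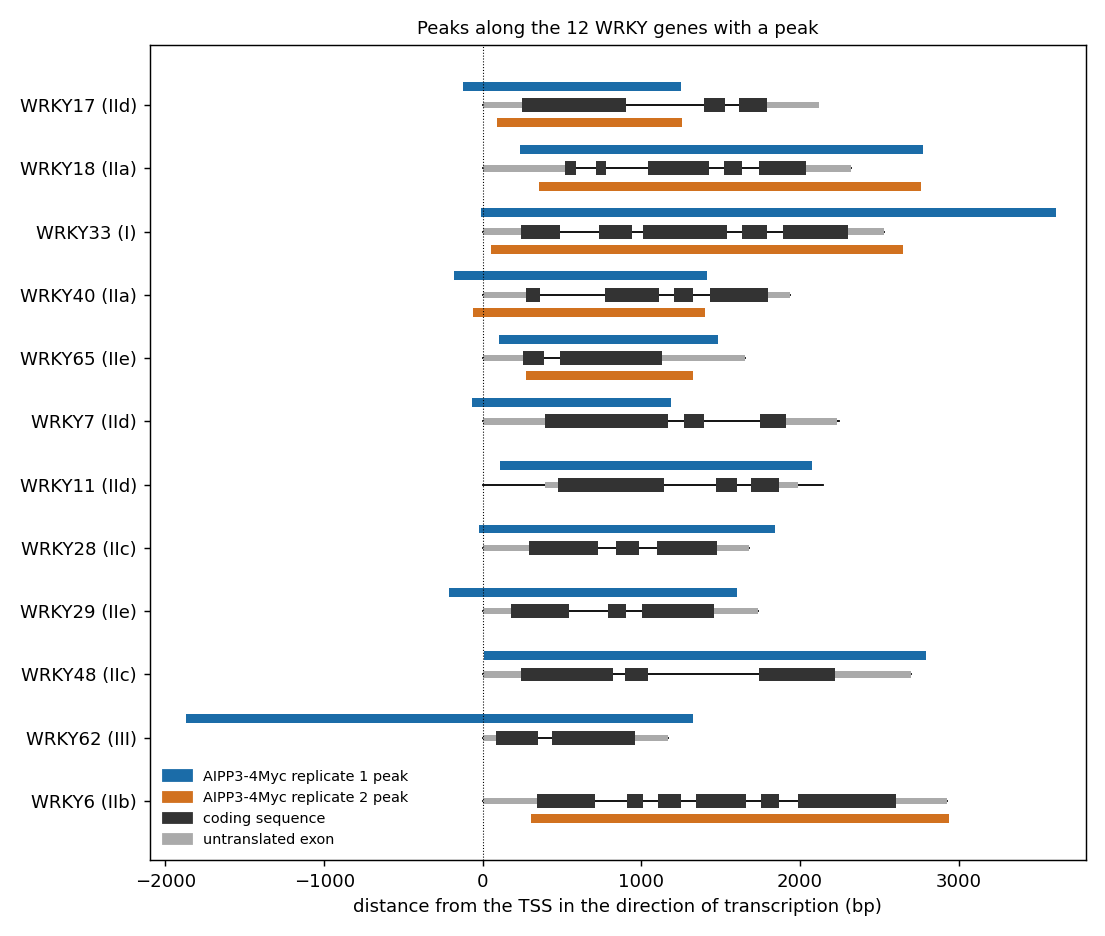
Peaks of AIPP3-4Myc replicate 1 (blue, above each gene) and replicate 2 (orange, below) along the 12 bound WRKY genes, by distance from the TSS in bp. Thick dark boxes are coding sequence, grey boxes untranslated exons and thin lines the rest of the gene, and 11 peaks of replicate 1 and 6 of replicate 2 lie mostly over the gene body, except that of WRKY62.

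Among the members bound in replicate 1 alone, WRKY62 stood apart. WRKY62 (AT5G01900, chr5:350925-352095, minus strand), a salicylate-induced group III factor that acts with WRKY38 downstream of NPR1, had a peak of score 369 at chr5:350773-353963. This peak was rank 7 of 926 in its list and the highest of any WRKY gene. It began at -1868 bp from the TSS, had its midpoint at -273 bp and covered the whole gene. It was the only WRKY peak with an upstream midpoint. In replicate 2 the nearest peak lay 4808 bp from the WRKY62 target region. Of the 10 highest peaks of replicate 1, 9 overlapped a replicate 2 peak, and the one at WRKY62 was the exception.

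The other members bound in replicate 1 alone had scores in the middle or lower part of the list. WRKY28 (AT4G18170), an activator of salicylate synthesis, had a peak of score 86.0 at rank 333 that covered 100% of the gene. WRKY48 (AT5G49520), a repressor of basal defence, had one of score 79.8 at rank 381 over 99.8% of the gene. WRKY29 (AT4G23550), a target of the flagellin-triggered kinase cascade, had one of score 61.0 at rank 665, which also touched the neighbour AT4G23560, a glycosyl hydrolase gene.

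WRKY7 (AT4G24240), another calmodulin-binding factor, had the lowest score of the replicate 1 members, 55.8 at rank 771, and its peak covered 52.8% of the gene and reached the target region of the RNA gene AT4G07250. The nearest replicate 2 peaks lay between 15.2 kb (WRKY11) and 222 kb (WRKY29) from WRKY7, WRKY11, WRKY28, WRKY29 and WRKY48. WRKY6 (AT1G62300), a regulator of senescence and phosphate transport, was bound in replicate 2 alone. Its peak (chr1:23016555-23019190) had a score of 83.7, rank 174, and covered 89.6% of the gene, and the nearest replicate 1 peak was 92.3 kb away.

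WRKY peaks were not concentrated among the strongest peaks of either list. In replicate 1 the 11 scores ran over 55.8 to 369 with a median of 79.8, against a median of 72.7 for all nuclear peaks, and their median rank was 381 of 926. In replicate 2 the 6 scores ran over 55.7 to 104 with a median of 83.9, against 74.3 for all nuclear peaks, and their median rank was 172 of 430. WRKY62 was the only WRKY peak that came close to the top of a list. With peaks of score 100 or more only, WRKY17, WRKY62 and WRKY65 were left in replicate 1 and WRKY33 in replicate 2. In both replicates 0 members were left, against 0.496% of all protein-coding genes. A count of 0 cannot be set apart from that share, since WRKY33 alone made 1.75% in replicate 2.

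**Figure D4:**
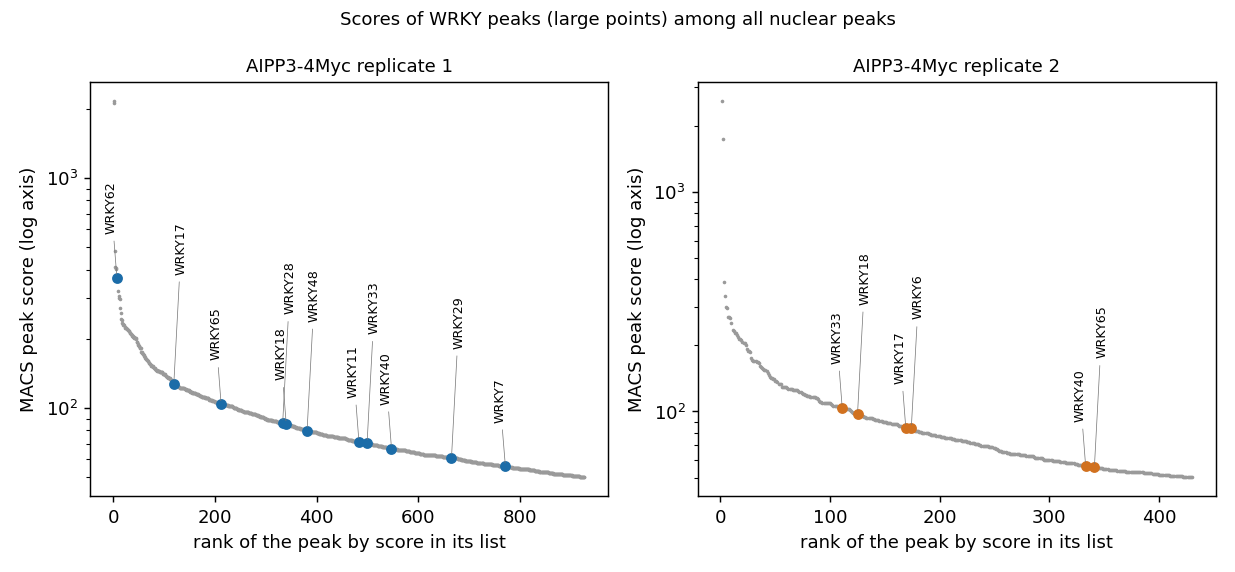
MACS score (log axis) of every nuclear peak against its rank within the list, for replicate 1 (left, 926 peaks) and replicate 2 (right, 430 peaks) of AIPP3-4Myc, with WRKY peaks as large labelled points. WRKY62 lies at rank 7 in replicate 1, and the other WRKY peaks lie between ranks 119 and 771 in replicate 1 and between 111 and 341 in replicate 2.

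WRKY peaks lay mostly over gene bodies, in target regions that held only 1 kb upstream of the TSS. Their position was not set beside that of all nuclear peaks. The midpoint was in coding sequence for 5, in an intron for 5 and upstream of the TSS for 1 of the 11 WRKY peaks of replicate 1, and in coding sequence for 5 and in an intron for 1 of the 6 peaks of replicate 2. The TSS was covered by 7 of 11 peaks in replicate 1 and by 1 of 6, that of WRKY40, in replicate 2. The median share of the gene body covered was 91.8% and 78.5%. GC content was set beside that of the flanks, stretches of the width of the peak on either side. It was above the flanks in 10 of 11 peaks of replicate 1 and in 6 of 6 of replicate 2. The exception was WRKY40 in replicate 1 (34.3% against 35.1%). Whether GC content went with peak position was not tested. Median GC was 37.4% and 39.2%, against 40.3% and 41.4% for all nuclear peaks of these lists. The part of base composition in peak detection was not tested.

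W-boxes were searched because WRKY genes are often controlled by WRKY factors themselves. The words were TTGACC and TTGACT on either strand. In the 1 kb upstream of the TSS, 11 of 12 bound members (91.7%) and 35 of 45 members without a peak (77.8%) held at least 1, against 67.3% of all protein-coding genes. At least 2 were present in 10 of 12 bound members (83.3%), in 22 of 45 members without a peak (48.9%) and in 33.1% of all protein-coding genes. WRKY17 held 7 and its closest relative WRKY11 held 5, and no member without a peak held 5 or more. Of all protein-coding genes 1.57% held 5 or more, and 0 of 45 cannot be set apart from that share. At least 4 were present in 3 of 12 bound members (25.0%) and in 3 of 45 members without a peak (6.67%), against 4.69% of all protein-coding genes. Over the whole target region the median was 4.00 W-boxes in bound members and 4.00 in members without a peak. A match is a description of the letters and not a bound site.

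Most upstream W-boxes lay outside the peaks. Of 33 upstream W-boxes in 11 bound members, 4 lay under a peak, all in WRKY29 and WRKY62, whereas 25 of 31 in gene bodies did. The peaks held little upstream sequence, with a median overlap with the 1 kb upstream of 25.0 bp in replicate 1 and 0 bp in replicate 2. The split was not set beside that of other words. Closely spaced or covered examples are shown on the coding strand, 5′ to 3′, TAIR10.1, with the W-boxes in capitals. The first group lay under the replicate 1 peak, and the WRKY18 and WRKY40 runs lay upstream of both of their peaks.
WRKY29 (chr4:12291580-12291623, plus strand): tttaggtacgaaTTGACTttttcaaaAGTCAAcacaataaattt
WRKY62 (chr5:352169-352198, minus strand): agtgtatagtaaTTGACTaaactctctcac
WRKY62 (chr5:352310-352339, minus strand): agttgttgggtaAGTCAActagtaatactc
WRKY18 (chr4:15382029-15382074, plus strand): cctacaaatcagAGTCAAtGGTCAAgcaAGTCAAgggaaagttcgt
WRKY40 (chr1:30382736-30382771, plus strand): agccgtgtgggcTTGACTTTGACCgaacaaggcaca
The WRKY18 and WRKY40 runs are clusters in which W-boxes follow one another within a few bases. Their last bases lay at -703 and -790 bp from the TSS, whereas the peaks of WRKY18 began inside the gene and those of WRKY40 began 178 and 59 bp upstream. In WRKY62 and WRKY29 the shown runs ended at -74, -215 and -9 bp. The density of W-boxes under WRKY peaks was 1.28 per kb in replicate 1, against 1.17 per kb under all nuclear peaks. In replicate 2 it came to 0.883 per kb, against 1.20 per kb.

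Other words that have been linked to Polycomb targets in plants were also counted on either strand under the peaks. GAGAGA was present in 11 of 11 WRKY peaks of replicate 1 and 6 of 6 of replicate 2, against 90.0% and 88.8% of all nuclear peaks, which differ from them in length. Its density was 2.61 and 2.03 per kb under WRKY peaks, against 2.09 and 2.14 per kb under all nuclear peaks. The telobox AAACCCTA was present in 1 of 11 WRKY peaks of replicate 1, that of WRKY28, against 25.1% of all nuclear peaks. In replicate 2 it was present in 1 of 6, that of WRKY6, against 21.4%. Its density under WRKY peaks was 0.0854 per kb in replicate 1, against 0.165 under all nuclear peaks, and 0.177 in replicate 2, against 0.146. Single peaks are too few to set these lists apart.

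The 45 members without a peak were mostly far from one. The closest was WRKY51 (AT5G64810), a repressor of jasmonate signalling, with a replicate 1 peak 2627 bp from its target region. WRKY39 (AT3G04670), a factor of heat tolerance, had a replicate 2 peak 4244 bp away. WRKY30 (AT5G24110) had a replicate 1 peak 6074 bp away. The median distance of these 45 members was 51.7 kb in replicate 1 and 90.3 kb in replicate 2, against 42.9 and 92.5 kb for protein-coding genes with no peak in either replicate. The shortest overlap of a peak with a bound target region was 1255 bp in replicate 1 (WRKY7) and 1053 bp in replicate 2 (WRKY65), so no call rested on a marginal overlap.

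Bound members and their closest listed relatives were split in most cases. The closest relative had a peak for WRKY7, WRKY11, WRKY17 and WRKY40. It had none for WRKY6, WRKY18, WRKY28, WRKY29, WRKY33, WRKY48, WRKY62 and WRKY65. WRKY11 and WRKY17, each the closest to the other, were both bound in replicate 1, as was WRKY7, whose closest relative is WRKY17. WRKY40 and its closest relative WRKY18 (44.5% identity) were both bound in both replicates. WRKY28 was bound in replicate 1, and its closest listed relative WRKY8 (AT5G46350), with 56.7% identical residues, was not bound and lay 197266 bp from a replicate 1 peak. WRKY62 was bound in replicate 1, and its partner WRKY38 (AT5G22570), with 37.0% identity, lay 76199 bp from a replicate 1 peak. The pairs WRKY3 with WRKY4 (72.0% identity) and WRKY31 with WRKY42 (72.9%) had no peak in any library. With the 15 unlisted WRKY genes counted in, 12 of 72 WRKY genes (16.7%) were bound in at least 1 replicate, against 5.72% of all protein-coding genes.

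A list of 26 genes that act with WRKY factors gave few peaks. It held kinases upstream of WRKY factors, VQ partner proteins, and genes of salicylate signalling, camalexin synthesis, early defence and trichome or seed development. Replicate 1 bound 2 of 26 (7.69%) and replicate 2 bound 1 (3.85%), near the 5.11% and 2.28% of all protein-coding genes, and Col-0 bound 0. MPK4, the kinase that phosphorylates the WRKY33 partner MKS1, had scores of 366 (rank 9) and 296 (rank 6) in replicates 1 and 2. NIMIN1, which binds the salicylate receptor NPR1, had a peak of score 165, rank 63, in replicate 1 alone. MKS1, NPR1, the camalexin genes PAD3 and CYP71A13, and the salicylate synthesis gene ICS1 had no peak.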

How the data were processed

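ChIP-seq peaks were examined in 3 libraries, 2 of AIPP3-4Myc and 1 of Col-0. Per the study's methods and the submitters' processing notes, the authors mapped reads to TAIR10 with Bowtie2 (version 2.2.8) and called peaks per library with MACS (version 1.4), both with default settings. The deposited score is the authors' MACS peak score, 10 times the negative log10 of the p-value. The control given to MACS, duplicate handling and read depth were not given in the sources used here, so no interval for depth could be set. Lists that hold more peaks bind more genes, and replicate 1 held more.

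Gene models, names and sequence came from NCBI RefSeq (TAIR10.1), read with Python 3.11.15 and Biopython 1.88, and all 57 identifiers matched. The transcript with the longest coding sequence stood for a gene. Members, groups, related genes and motifs were chosen with earlier results of these data known. Every listed WRKY gene with a peak was named, with both peaks given in full where both replicates had one, and so were the 3 unbound members nearest to a peak and examples of relatives. Calls were made on all 27444 genes and tested on simulated peaks. Protein identity was taken from global alignments. Alternatives were a score of at least 100, a 200 bp overlap, the peak midpoint, the gene body, 1 kb around the TSS, the nearest TSS, removal of Col-0 peaks, equal peak numbers and single replicates.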

Additional observations from a re-analysis of the deposited data

How the results depend on the processing

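Of 62 recomputed counts, 11 moved by over 1.5 times and 51 did not, but 15 of the 51 were 0 in both settings and 6 more could not change by construction, which leaves 30. With peaks of score 100 or more, WRKY genes bound fell to 3 in replicate 1, 1 in replicate 2 and 0 in both, with 0 in group I and 0 in group II, against 1.31%, 0.685% and 0.496% of all genes in replicate 1, replicate 2 and both. With as many peaks in replicate 1 as in replicate 2, 6 members were bound in replicate 1 (WRKY17, WRKY18, WRKY28, WRKY48, WRKY62 and WRKY65), 3 in both and 0 of group I, against 2.36% and 1.24% of all genes. At a score of 100 or more the WRKY share was 5.26% in replicate 1, above the 1.31% of all genes. In replicate 2 it was 1.75% at that score, or 1 gene, which cannot be set apart from the 0.685% of all genes. The share in both replicates fell to 0 there, also in groups I and II, and that of group I did so with equal peak numbers. Since 1 gene alone made 1.75%, a count of 0 cannot be set apart from the 0.496% of all genes. The same holds for groups I and II, which hold fewer genes, and for group I against 1.24% with equal peak numbers. Both settings keep fewer peaks by construction, and with all peaks the share of all genes in both replicates was 1.67%. The part of peak number in the lower counts was not tested. With a single replicate in place of both, the counts were those of that library by itself. Replicate 2 gave 6 members and replicate 1 gave 11, against 2.28% and 5.11% of all genes. In the same order, group I had 1 and 1, group II 5 and 9, and group III 0 and 1. No paired analysis was possible because Col-0 had 1 library. The count of 5 shared members therefore rests on peaks that scored below 100 in at least 1 replicate. In replicate 2 the peaks of WRKY40 (56.6, rank 333 of 430) and WRKY65 (55.7, rank 341) lay near the lowest score of that list, 50.1. In replicate 1 these genes had scores of 66.8 and 104. Depth, which was not given, limits what a missing peak means.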
